A study of Mus musculus with 8 samples.

Results

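The data described here are the resting transcriptome of primary mouse embryonic palate cells, measured on the 4 uninduced arrays among the 8 of the series. All 4 samples were cells from palatal shelves of CBA;C57BL6 N2 embryos at E13.5, grown in DMEM with 10% fetal bovine serum to passage 1 and labelled as not induced. The other 4 arrays held the same kind of cells after 60 min with pre-clustered ephrin-B1 at 2 µg/ml, and they enter no value below. The labels do not say whether the 4 replicates were separate cultures or embryos, so the spread between arrays may be technical. One label calls these samples a control induction, and none says whether the antibody that clusters the ephrin was given alone to the uninduced cells.

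The palatal shelves are outgrowths of the maxillary processes, filled with mesenchyme derived largely from the cranial neural crest and covered by oral epithelium. Around this stage they rise above the tongue and then fuse at the midline. Mesenchymal transcription factors such as Osr2, Msx1 and Shox2 pattern the shelves, and signals exchanged between epithelium and mesenchyme through Shh, Fgf10 with Fgfr2, Bmp4, Wnt5a and the TGF-beta family sustain their growth. Ephrin-B1 is a membrane-bound ligand that signals on contact to EphB receptors on neighbouring cells.

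A gene was counted as on where at least 1 of its probes had a detection p-value under 0.05 against the negative control beads on each of the 4 arrays. Of 17711 genes with a probe, 8543 were on (48.2%), 1607 were above background on 1 to 3 arrays (9.07%), and 7561 were above background on no array (42.7%). Levels are normalized log2 intensities of the brightest such probe, given as the mean ± SD over the 4 arrays (n = 4 throughout). Brightness depends on the probe as well as on the transcript, so the order of genes by level is an order of probe signals. A gene above background on no array may still be transcribed. RNA came from whole cultures, in which fewer cells of a type and less RNA per cell cannot be told apart.

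The calls were set against groups of genes that show how far they can be read. Of 49 ribosomal protein genes, which every growing cell transcribes, 46 were on (93.9%). The exceptions were Rpl17, whose probe gave 4.50, 4.72, 4.64 and 4.45 on replicates 1 to 4, and the tissue-restricted paralogs Rpl39l and Rpl3l. Of 1163 olfactory and vomeronasal receptor genes, which belong to sensory neurons of the nose, 64 were on (5.50%). Those 64 had a median level of 5.70, 90% of them lay below 6.52, and the highest was at 8.77. A level under 6.52 is therefore called weak in what follows, and 6846 of the 8543 genes on (80.1%) lay above it. Shares were higher in smaller groups foreign to the palate. Of 20 germ cell genes 2 were on (10.0%), both weak. Of 28 genes of distant organs 3 were on (10.7%), the strongest being Apoa1 at 7.80. A level above 6.52 is thus no proof of use by these cells. The arrays detected 33.3%, 33.1%, 35.8% and 36.8% of 46632 probes on replicates 1 to 4, and the median raw signal was 69.6 to 73.3.

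Genes that were on had more CG pairs around their start than genes at large. In RefSeq promoter windows of 300 bases (250 before the outermost annotated start and 50 after it, GRCm38.p6), available for 14209 genes (80.2%), the median count of CG pairs was 21 among genes on, against 15 among all genes. Among genes with 0 to 2 CG pairs 10.9% were on, with 6 to 10 pairs 37.9%, and with 21 to 30 pairs 70.0%. The share on no longer climbed beyond that, at 68.9% with 31 or more pairs. A TATAAA motif, read on the sense strand between 40 and 20 bases before the start, was in 1.30% of windows of genes on, against 2.46% of all windows. Among the 100 brightest genes it was in 6%. The windows of 6 genes described below show both kinds of promoter, with the 120 bases before the start printed 5′ to 3′ on the sense strand and CG pairs in capitals. Msx1, a patterning factor of the palate mesenchyme (chr5:37824586-37824705, minus strand), and Birc5, the mitotic protein survivin (chr11:117849117-117849236, plus strand), were on and had 29 and 27 CG pairs in the whole window. Col3a1, a fibrillar collagen (chr1:45311418-45311537, plus strand), and Acta2, smooth muscle actin (chr19:34255374-34255493, minus strand), were also on, with 0 and 6 pairs. Krt5, a basal keratin (chr15:101712906-101713025, minus strand), and Tyr, the pigment enzyme tyrosinase (chr7:87493513-87493632, minus strand), were above background on no array, with 6 and 0 pairs.
Msx1: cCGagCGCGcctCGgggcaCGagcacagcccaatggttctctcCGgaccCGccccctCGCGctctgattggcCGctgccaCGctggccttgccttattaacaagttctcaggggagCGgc
Birc5: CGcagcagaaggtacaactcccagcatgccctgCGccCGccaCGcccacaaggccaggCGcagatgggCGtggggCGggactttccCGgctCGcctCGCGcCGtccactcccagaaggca
Col3a1: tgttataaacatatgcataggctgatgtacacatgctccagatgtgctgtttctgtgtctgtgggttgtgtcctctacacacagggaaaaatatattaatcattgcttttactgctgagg
Acta2: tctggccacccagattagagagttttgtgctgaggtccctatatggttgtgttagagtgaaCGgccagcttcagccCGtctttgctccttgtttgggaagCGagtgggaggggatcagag
Krt5: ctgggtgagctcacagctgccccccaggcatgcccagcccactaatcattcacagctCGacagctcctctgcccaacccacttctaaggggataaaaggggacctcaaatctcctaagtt
Tyr: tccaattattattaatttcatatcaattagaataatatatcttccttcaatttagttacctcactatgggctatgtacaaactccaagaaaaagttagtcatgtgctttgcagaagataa

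**Figure D1:**
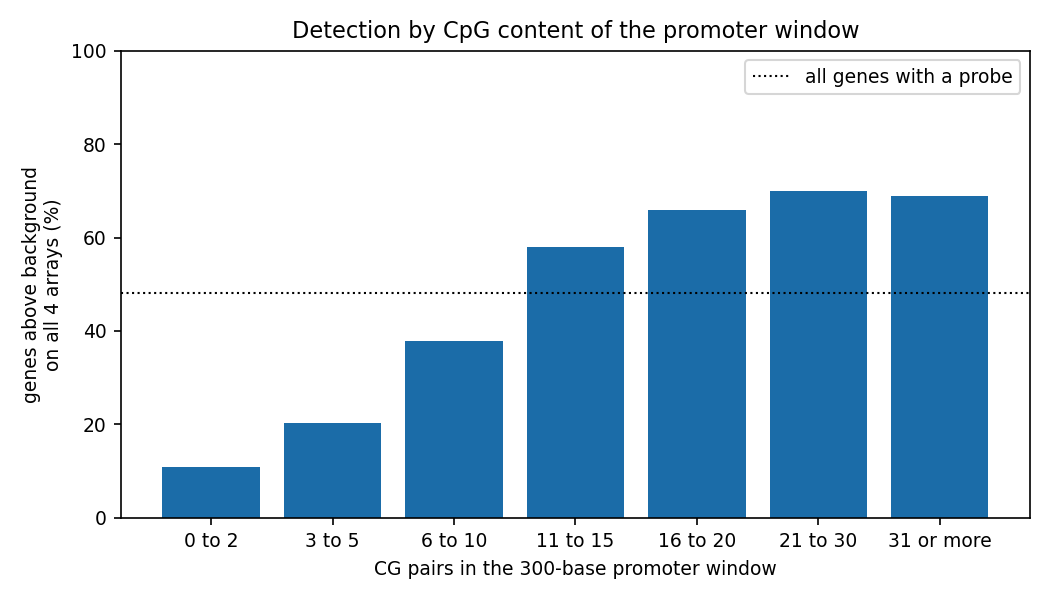
Share of genes on (%, vertical axis) by the number of CG pairs in the promoter window of 300 bases (horizontal axis); the dotted line is the share among all genes with a probe, 48.2%. The bars climb to 70.0% at 21 to 30 pairs and stand at 68.9% in the last class.

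Ribosomal proteins made up the largest counted class of the brightest genes. Lgals1, the secreted galactoside-binding lectin galectin-1, ranked first with 14.91, 15.02, 14.94 and 14.94 on replicates 1 to 4. The next were the elongation factor Eef1g (14.81 ± 0.04), the ribosomal proteins Rps9 (14.79 ± 0.08) and Rpl41 (14.77 ± 0.29), Actb (14.76 ± 0.10) and the glycolytic enzyme Gapdh (14.75 ± 0.04). These top probes differ by little more than their spread over arrays, so their order is not resolved. Among the 25 brightest genes were also the RNA-binding protein Ybx1 (14.71), the focal adhesion protein Zyx (14.63), the tubulin Tuba1b (14.57) and the respiratory chain subunit Cox7c (14.52). Rps20, Rpl23, Rps14, Rpl13, Rpl37, Rpl36a, Rps27l, Eef1a1, Ppia, Nme2, Basp1 and the histone genes H2ac10 and H2ac6 filled most of the remaining places. Igf2, the fetal insulin-like growth factor, ranked 12th and gave 14.41, 14.57, 14.59 and 14.86, lowest on replicate 1 and highest on replicate 4. Acta2 ranked 18th with 14.39, 14.28, 14.80 and 14.70. Of the 100 brightest genes, 30 encoded ribosomal proteins, 8 actins, tropomyosins, myosin light chains or tubulins, 7 respiratory chain or ATP synthase subunits, 6 histones, 5 translation factors and 3 annexins or S100 proteins. No collagen was among the 100, and Col5a1 reached 12.94 ± 0.18. Ribosomal proteins, histones and actins have close paralogs and pseudogenes, and sharing of signal between such copies was not tested.

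Of 23 palatal mesenchyme transcription factors with a probe, 19 were on (82.6%), beside 48.2% of all genes. Their median level was 9.26, beside 8.45 over all genes on. The list was chosen with earlier results of these data known, so it is no independent check of the labelled cell type. Msx1 gave 10.93, 11.05, 11.11 and 10.95 on replicates 1 to 4, and Osr2, which the palate needs to grow and elevate, gave 9.75, 9.78, 10.01 and 9.67. The paired-type homeobox genes Prrx2 (11.36 ± 0.21) and Prrx1 (10.56 ± 0.09) and the basic helix-loop-helix factors Twist1 (10.14 ± 0.19) and Twist2 (9.48 ± 0.23) were on as well. Both anterior and posterior factors of the shelf were present: Shox2, an anterior factor, was at 10.81 ± 0.12 and Meox2, a posterior one, was at 8.4 ± 0.24. Barx1, another posterior factor, gave 9.69, 9.87, 10.50 and 10.11, highest on replicate 3. Msx2 (5.92), Foxd1 (6.05) and Foxf1 (6.09) were on but weak. Lhx6 was above background on 3 arrays and Alx1 on 2. Tbx22, mutated in X-linked cleft palate, and Pax9, needed for palate growth, were above background on none of the 4.

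**Figure D2:**
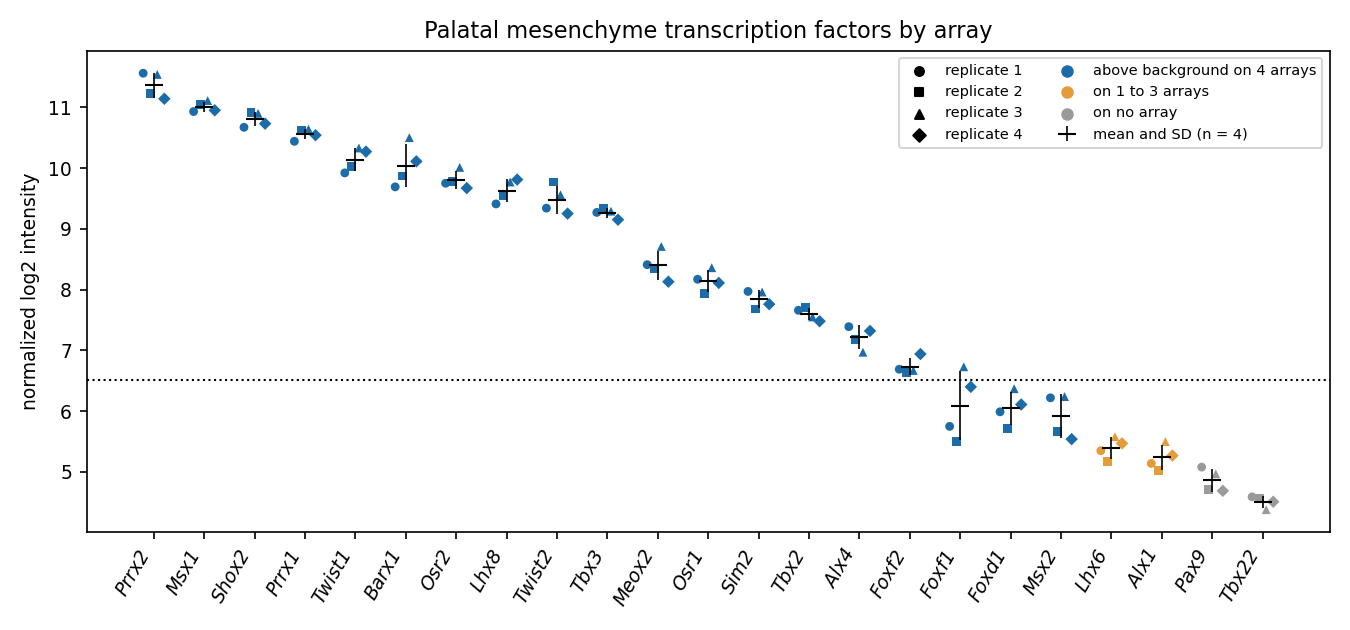
Normalized log2 intensity (vertical axis) of the 23 palatal mesenchyme transcription factors with a probe, by array (marker shape), with the mean and SD over 4 arrays; colour gives the number of arrays above background and the dotted line marks 6.52. Prrx2, Msx1 and Shox2 lie above 10.5 on every array, and Pax9 and Tbx22 lie near 5 or below.

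Fibroblast and mesenchymal matrix genes were the most complete lineage list, with 28 of 29 on (96.6%) and a median level of 10.12. Vim, the intermediate filament protein of mesenchyme, gave 14.55, 14.41, 14.45 and 14.45. Lox, which cross-links collagen and elastin, was at 14.24 ± 0.22, and Col5a1, Loxl1, Mmp2 and S100a4 stood between 12.43 and 12.94. Col1a1, the main collagen of connective tissue, gave 13.19, 12.54, 12.67 and 13.02, with replicates 1 and 4 above the other two. Col3a1 gave 10.04, 9.99, 9.44 and 10.00, lowest on replicate 3, and only 1 of its 2 probes was on. Vcan, the proteoglycan versican, was above background on 1 array.

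Neural crest genes of the first arch were on for 9 of 17 (52.9%), close to the share over all genes. Dlx2 (10.91 ± 0.12) and Dlx1 (9.29 ± 0.17), homeobox genes of the jaw primordia, Sox9 (10.40 ± 0.18) and Snai2 (9.67 ± 0.20) were on. Tfap2b was at 8.43 ± 0.15 and Tfap2a at 6.58 ± 0.18, near the weak range. Foxd3, a marker of early migrating crest, and Hand1 and Hand2, factors of the distal lower jaw and the heart, were above background on no array, and Sox10 was on 2. The 39 Hox cluster genes of the list, which first-arch crest does not express, had 37 with a probe and 3 on (8.11%). Those were Hoxb4 (6.43), Hoxb1 (6.05) and Hoxb3 (5.40), all 3 in the weak range, and 29 of the 37 were above background on no array.

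**Figure D3:**
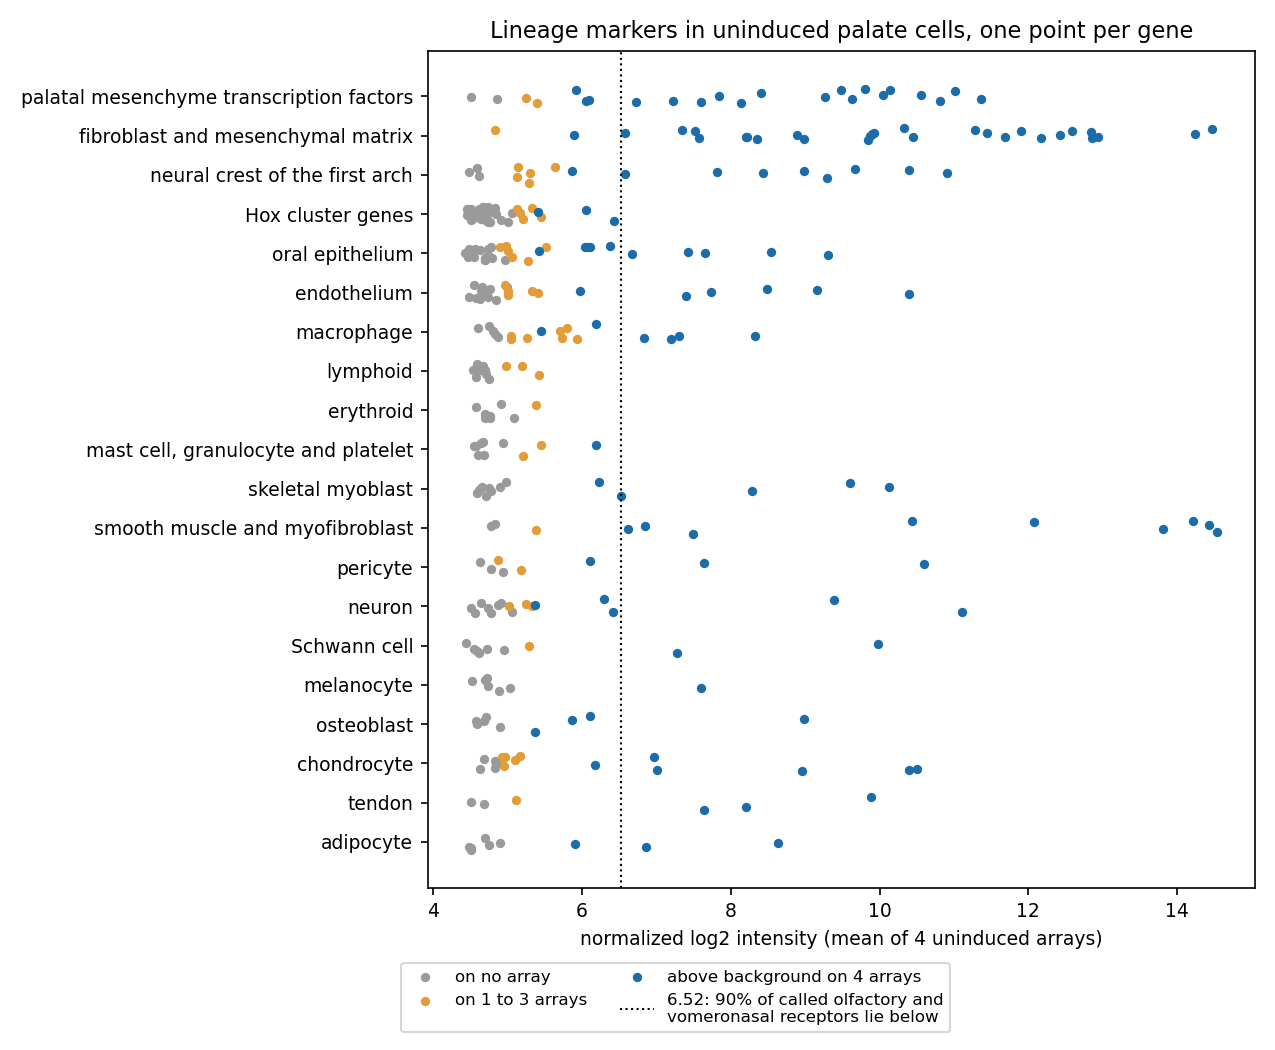
Mean normalized log2 intensity over the 4 uninduced arrays (horizontal axis) for each marker with a probe, by lineage list (rows); blue points were above background on 4 arrays, orange on 1 to 3, grey on none, and the dotted line marks 6.52. Most matrix genes and palatal factors lie right of the line, while lymphoid and erythroid markers have no blue point.

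Epithelial markers were on for 10 of 32 (31.2%), beside 48.2% of all genes, and 5 of these 10 lay above 6.52. The strongest was Jup, the junction protein plakoglobin, which also occurs outside epithelia, at 9.56, 9.14, 9.33 and 9.21. The simple keratin Krt18 gave 8.72, 8.84, 8.04 and 8.58, and its partner Krt8 was weak at 6.38 ± 0.29. Sfn (7.65 ± 0.11), the desmosomal cadherin Dsg3 (7.43 ± 0.38) and Pkp1 (6.67 ± 0.16) were on. The weak members on were Krt8, Krt17 (6.08), Spint1 (6.11), Itgb4 (6.04) and Ovol1 (5.42). Of the 6 members above background on 1 to 3 arrays, the basal keratin Krt14 and the splicing factor Esrp2 were so on 3 arrays each. Another 16 were above background on no array, among them Krt5, Krt15, Krt19, Epcam, Trp63, Shh, Grhl2 and Esrp1, and Cdh1, the epithelial cadherin, was above it on 1 array.

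Endothelial markers were on for 6 of 23 (26.1%), beside 48.2% of all genes. Flt1, a VEGF receptor, gave 10.62, 10.35, 9.95 and 10.66, Ramp2 was at 9.16 ± 0.31 and Egfl7 at 8.48 ± 0.25. The receptor genes Eng (7.73 ± 0.19) and Flt4 (7.40 ± 0.26) were on too. Another 5 members, Emcn, Esam, Cldn5, Mmrn2 and Prox1, were above background on 1 to 3 arrays. The remaining 12 were above it on no array, among them the junction genes Pecam1 and Cdh5, the receptors Tek and Tie1, and the factors Erg and Sox17. Kdr was weak at 5.97 ± 0.20.

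Macrophage genes were on for 6 of 18 (33.3%), beside 48.2% of all genes, and 7 more were above background on 1 to 3 arrays. Csf1r and Cd68 of this list had no probe. The lysosomal protein Laptm5 was at 8.32 ± 0.29 and Cd14 at 7.30 ± 0.08. The complement genes spread between arrays: C1qb gave 6.57, 6.98, 7.21 and 6.56, and C1qc gave 5.44, 6.31, 6.86 and 6.11. Both were highest on replicate 3. Fcer1g gave 6.50, 7.80, 7.45 and 7.05, highest on replicate 2, and Spi1 was weak at 5.45 ± 0.08. Of the partial members Adgre1, Aif1, C1qa, Lyz2 and Ms4a7 were above background on 3 arrays each. Lyz2 spread most, with 4.77, 5.53, 7.14 and 5.73. Ptprc, the pan-leukocyte gene, Itgam, Cx3cr1, Ctss and Trem2 were above background on no array. Of 12 lymphoid and 8 erythroid genes, 0 were on. S100a8, at 6.18 ± 0.61, was the only one of 10 mast cell, granulocyte and platelet genes.

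Contractile genes formed the brightest of the lineage lists, with 9 of 12 smooth muscle and myofibroblast genes on (75%) and a median of 12.08. Acta2 (14.54 ± 0.25), Actg2 (14.43 ± 0.08), Tpm1 (14.22 ± 0.06), Tpm2 (13.81 ± 0.11) and Tagln (12.08 ± 0.20) led it. Myh11, the smooth muscle myosin heavy chain, was at 6.61 ± 0.11, just above the weak range. Cnn1 and Synpo2 were above background on no array, and Myocd, the cofactor that drives the smooth muscle program, was partial.

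Of the 14 genes with a probe in the skeletal myoblast list 5 were on (35.7%), beside 48.2% of all genes. They were the thin-filament genes Tnnc1, Acta1, Tnnt1 and Tnnt3 and the myosin light chain Myl1. The other 9 were above background on no array: the myogenic regulators Pax7, Myf5, Myod1, Myog and Myf6, the intermediate filament gene Des, the myosin heavy chain Myh8, the creatine kinase Ckm and the acetylcholine receptor subunit Chrna1. Tnnc1, a slow and cardiac troponin, gave 10.23, 9.85, 10.84 and 9.55 on replicates 1 to 4. Acta1 gave 9.78, 9.42, 10.11 and 9.09, and Tnnt1 gave 8.43, 7.89, 9.0 and 7.79. All 5 genes were highest on replicate 3 and lowest on replicate 4, and the mean of these 5 genes was 8.24, 7.96, 8.78 and 7.60. Actc1, cardiac actin, which is not on that list and was among the 10 most variable genes, had the same order of arrays with 9.44, 8.85, 10.43 and 8.54. The actin genes are near-identical in their coding sequence, so Acta1 and Actc1 are uncertain where a probe could also bind Acta2 or Actg2 transcripts.

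Markers of connective tissue fates were present in part. Of 17 chondrocyte genes 6 were on (35.3%), beside 48.2% of all genes. Col2a1, the cartilage collagen, gave 10.53, 10.19, 10.64 and 10.64. Sox9 (10.40 ± 0.18), Sox6 (8.95 ± 0.13), Col9a3 (7.01 ± 0.13), Acan (6.96 ± 0.22) and the weak Col10a1 (6.17) were also on. Comp, Matn3, Col9a2 and Col11a1 were among the 6 above background on no array. Tnmd, a tendon membrane protein, gave 10.18, 10.16, 9.53 and 9.64, and the tendon factors Scx (8.21 ± 0.49) and Mkx (7.64 ± 0.17) were on too, 3 of 6. Scx was highest on replicate 1, at 8.91, with the other arrays between 7.84 and 8.20. Sp7, a factor of bone-forming cells, gave 8.91, 8.69, 9.77 and 8.61, highest on replicate 3, and the mature osteoblast genes Ibsp, Dmp1, Phex, Ifitm5 and Sost were above background on no array. Lpl (8.64 ± 0.29) and Pparg (6.86 ± 0.29) were on, but Adipoq, Fabp4 and Plin1 of fat cells were not.

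Few markers of neural and pigment lineages stood clear of background. Gap43, a growth cone protein, gave 10.76, 11.37, 10.83 and 11.50, and Stmn2 gave 9.74, 9.60, 8.72 and 9.51. The other 3 of the 5 neuronal genes on, of 16, were weak (Syt1 6.41, Tubb3 6.29, Elavl4 5.37), and Map2, Dcx, Nefl and Rbfox3 were above background on no array. Pmp22 (9.98 ± 0.13) and Mbp (7.27 ± 0.17) were the 2 of 9 Schwann cell genes on. Mitf (7.60 ± 0.21) was the only one of 7 melanocyte genes, and Tyr, Tyrp1, Dct, Pmel and Mlana were above background on no array. Among 8 pericyte genes Mcam (10.60 ± 0.07), Cspg4 (7.64 ± 0.23) and Notch3 (6.11 ± 0.32) were on.

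Of 26 cell cycle genes 23 were on (88.5%), beside 48.2% of all genes, with a median level of 10.45. Birc5 gave 11.33, 11.58, 11.61 and 11.40, the replication helicase subunit Mcm4 was at 11.55 ± 0.11, the mitotic kinase Plk1 at 11.31 ± 0.08 and Cdk1 at 11.17 ± 0.35. Cdk1 was highest on replicate 3, at 11.62, and lowest on replicate 1, at 10.84. Ccnb2 and Kif11 were above background on no array. Inhibitors of the cycle were detected beside them, 6 of 7. Cdkn1a (p21) gave 13.21, 13.11, 13.15 and 13.08, and Cdkn1c (p57), an imprinted inhibitor, was at 12.81 ± 0.22. The INK4 genes Cdkn2b and Cdkn2a differed more between arrays: Cdkn2b was at 11.42 ± 0.46, and Cdkn2a gave 9.06, 8.45, 6.85 and 7.83. Both were highest on replicate 1 and lowest on replicate 3. The INK4 genes Cdkn2c (7.88 ± 0.30) and Cdkn2d (8.37 ± 0.09) varied less than either. Cdkn1b (p27) was above background on no array.

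Sex-linked transcripts of both kinds were on in all 4 samples. The Y-linked Eif2s3y gave 8.5, 9.21, 7.70 and 8.88, and Xist, the RNA of the inactive X chromosome, gave 6.73, 6.37, 7.29 and 6.99. Replicate 3 had the lowest Eif2s3y and the highest Xist, and replicate 2 the reverse. Other Y-linked genes followed this only in part. Uty, on but weak, gave 6.01, 5.95, 5.34 and 5.51. Kdm5d, above background on 2 arrays, gave 5.21, 5.88, 4.98 and 6.13. They too were lowest on replicate 3, but Uty was highest on replicate 1 and Kdm5d on replicate 4.

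Across the ligand-receptor lists 92 of 210 ligands or their synthesis enzymes were on (43.8%), as were 98 of 215 receptors (45.6%) and 31 of 47 modulators (66.0%), beside 48.2% of all genes. Of 94 ligand and receptor pairs, 40 had the ligand and at least 1 of its receptors on. In 12 pairs a receptor was on and the ligand above background on no array. In 9 pairs the ligand was on and no receptor was above background, and in 6 pairs neither was. Another 12 pairs had a side with no probe, and 15 had a side above background on 1 to 3 arrays.

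**Figure D4:**
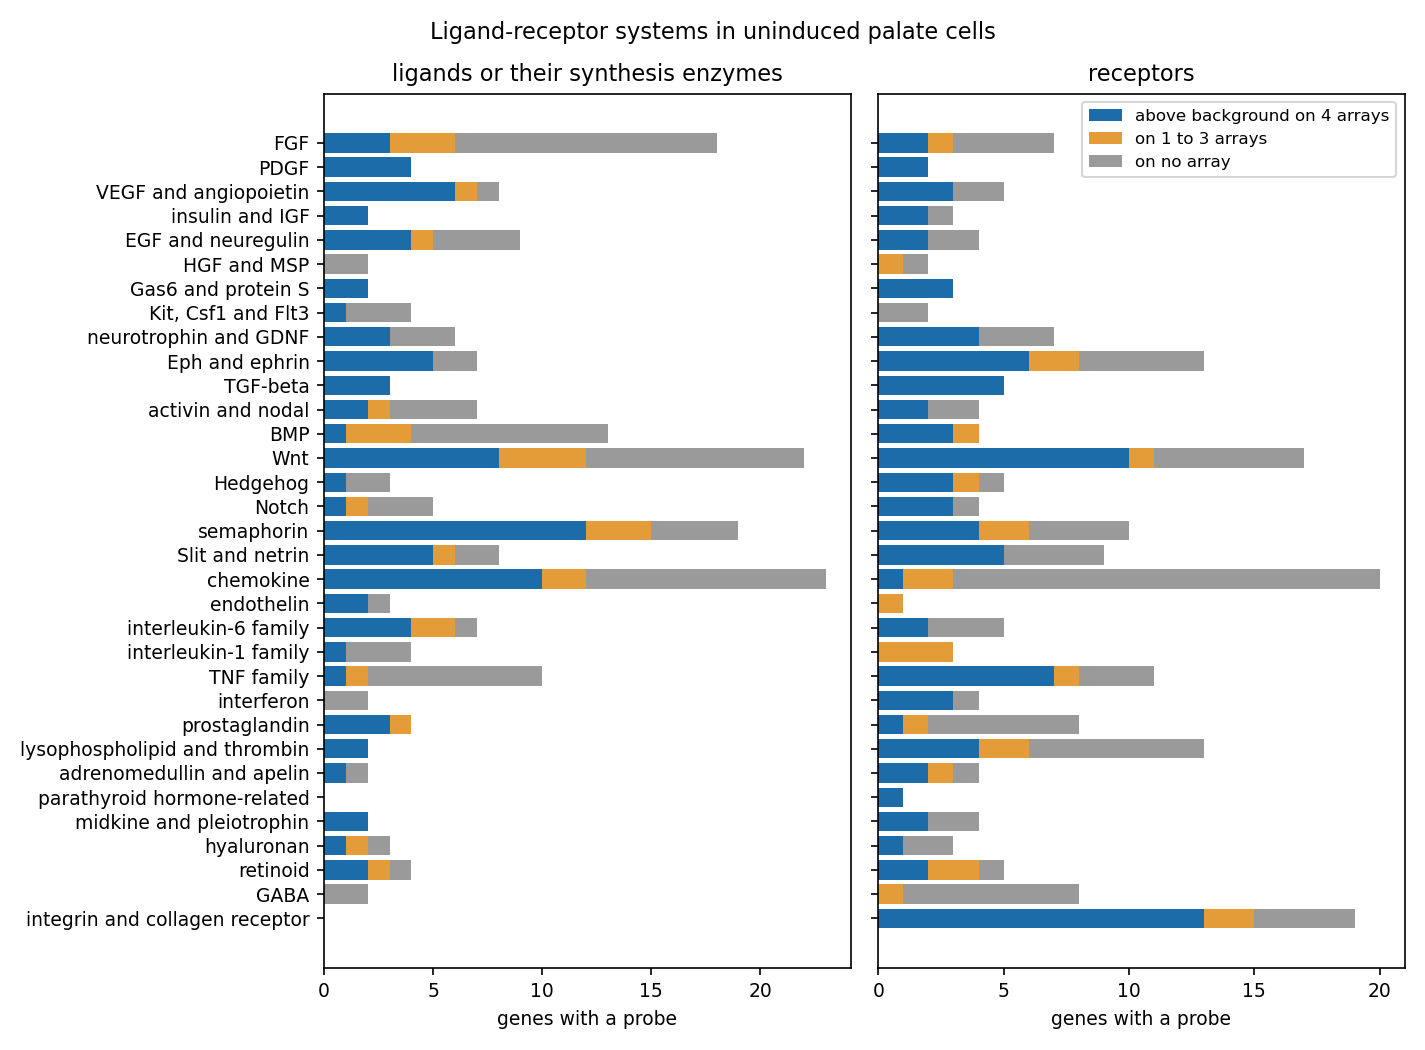
Number of genes with a probe (horizontal axis) in each ligand-receptor system (rows), for ligands or their synthesis enzymes (left) and receptors (right), by the number of arrays above background. PDGF, TGF-beta and Gas6 and protein S are blue throughout on both sides, whereas chemokines have 10 of 23 ligands and 1 of 20 receptors in blue.

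Ephrins and Eph receptors, the system that the study engaged, were each on in part at rest. Efnb1, the gene of ephrin-B1 itself, gave 10.93, 10.96, 10.70 and 10.59. Efnb2 was at 8.95 ± 0.09, Efna5 at 11.60 ± 0.16, Efna1 at 7.97 ± 0.18 and Efna4 at 7.41 ± 0.19, so that 5 of 7 ephrins were on. Among receptors 6 of 13 were on (46.2%), near the 48.2% of all genes, and Ephb2 was not analysed here. Ephb4 gave 11.14, 10.98, 10.99 and 11.16 with both its probes on, and Ephb1 gave 7.87, 8.12, 7.64 and 7.71 with 1 of its 4 probes on. Epha2 (7.78 ± 0.24), Ephb6 (6.91 ± 0.29), Epha3 (6.64 ± 0.17) and Epha4 (6.64 ± 0.42) were lower on their own probes, and Ephb3, Epha5, Epha6, Epha7 and Epha10 were above background on no array. Epha4 was highest on replicate 1, at 7.22, and within 6.32 to 6.68 on the others.

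In the PDGF, IGF and Gas6 systems, each with few members, most genes were on. All 4 PDGF ligands and both receptors were on: Pdgfa gave 11.61, 11.64, 11.77 and 11.70, Pdgfra gave 8.28, 8.44, 8.19 and 8.5, and Pdgfrb was at 8.98 ± 0.18. Igf2 (14.61 ± 0.18) and Igf1 (10.41 ± 0.13) were on with Igf1r (9.45 ± 0.23) and Igf2r (10.61 ± 0.20), the receptor that clears Igf2, while the insulin receptor gene Insr was above background on no array. Of 7 binding proteins of IGF 6 were on, from Igfbp7 (13.34 ± 0.22) to Igfbp6 (8.32 ± 0.29). Igfbp3 dipped on replicate 3, at 7.58 beside 8.49 to 8.92 on the others. Gas6 (8.16 ± 0.41) and Pros1 (9.15 ± 0.15) were on with all 3 of their receptor kinases, Axl (13.35 ± 0.25), Mertk (7.10 ± 0.15) and Tyro3 (5.52 ± 0.20), the last of them weak.

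In the TGF-beta system every member with a probe was on. Tgfb3, whose loss causes cleft palate in mice, gave 11.41, 11.25, 10.84 and 10.98. Tgfb2 was at 9.51 ± 0.13 and Tgfb1 at 8.36 ± 0.18. The signalling receptors Tgfbr1 (11.13 ± 0.09) and Tgfbr2 (10.75 ± 0.18) varied little between arrays, and the accessory receptors Tgfbr3 (7.26 ± 0.37) and Eng (7.73 ± 0.19) were on too. Of the binding proteins that store the latent ligand, Ltbp1 to Ltbp4 were on, with Ltbp2 at 11.61 ± 0.30.

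In the BMP system a single ligand stood out. Bmp4, a growth signal of the anterior palate, gave 11.56, 11.62, 11.35 and 11.57, and it was the only one of 13 ligands on (7.69%). Bmp2, Bmp3, Bmp5, Bmp6 and Bmp7 were above background on no array. The receptors Acvr1 (10.03 ± 0.14) and Bmpr1a (9.08 ± 0.11) were on, Bmpr1b was weak (5.67 ± 0.15) and Bmpr2 was partial. Of 9 antagonists and other modulators 7 were on, including Twsg1 (10.57 ± 0.08), Bmper (9.64 ± 0.11), Sostdc1 (9.12 ± 0.13) and Grem1, which gave 10.88, 10.12, 10.02 and 9.77. Nog was near the weak limit at 6.54 ± 0.17. In the related activin group Inhbb (7.21 ± 0.18) and the receptors Acvr2b (7.28 ± 0.09) and Acvr1b (7.22 ± 0.42) were on, with the antagonist Fst at 9.86 ± 0.23.

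FGF signalling was represented by few genes. Of 18 ligands 3 were on (16.7%): Fgf10, the mesenchymal signal to oral epithelium, at 7.14, 7.62, 7.61 and 7.49, and the weak Fgf2 (5.88) and Fgf9 (5.41). Fgf7 and Fgf8 were above background on no array. Fgfr2, on through 1 of its 4 probes, gave 10.15, 10.14, 10.21 and 10.44. Fgfr1 was above background on 2 arrays, both of slide 3, and Fgfr3 and Fgfr4 on none.

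Of the Hedgehog genes the ligands Shh and Ihh were above background on no array and Dhh was weak at 5.46 ± 0.14. Smo, the signal transducer, gave 9.53, 9.37, 9.13 and 8.98, and Gli3, which acts mainly as a repressor without ligand, gave 10.51, 10.50, 10.55 and 10.53. Gli1, a target of the pathway, was above background on no array, and the targets Ptch1 and Hhip were partial. The coreceptor Gas1 was also at background, and the coreceptors Cdon (5.65) and Boc (5.47) were weak.

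Wnt ligands and R-spondins were on for 8 of 22 (36.4%). Wnt5a, a non-canonical ligand of the palate mesenchyme, gave 10.92, 10.79, 10.82 and 11.21, and Wnt9a gave 10.14, 9.87, 9.42 and 9.90. Rspo3, Wnt10a and Rspo2 lay between 6.63 and 7.38, while Wnt1, Wnt3a, Wnt7a, Wnt7b, Wnt9b and Wnt11 were above background on no array. Receptors for Wnt5a were on, Ryk at 12.25 ± 0.06 and Ror2 at 8.89 ± 0.13. Of the frizzled receptors Fzd7 (8.69 ± 0.10), Fzd5 (8.37 ± 0.07), Fzd2 (8.07 ± 0.42), Fzd1 (7.90 ± 0.40) and Fzd3 (7.10 ± 0.19) were on above 6.52. The coreceptor Lrp6 was weak (6.26 ± 0.33) and Lrp5, Lgr4 and Lgr5 were above background on no array. Of 10 modulators 4 were on (40%), namely Dkk3 (12.35 ± 0.18), Sfrp1 (9.65 ± 0.32), Sfrp2 (9.37 ± 0.11) and the weak Frzb (5.61 ± 0.05), while Dkk1, Dkk2, Dkk4, Sfrp4, Sfrp5 and Wif1 were above background on no array.

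In the Notch system Jag1 (7.09 ± 0.27) was the only one of 5 ligands on, with Notch1 at 7.99 ± 0.14 and Notch3 and Notch4 weak. The target genes Hes1 (10.69 ± 0.20) and Hey1 (9.32 ± 0.25) were on, Heyl was weak (5.61 ± 0.50), and Hes5 and Hey2 were above background on no array. Notch2, Dll1, Dll3 and Dll4 were likewise at background.

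Semaphorins were on for 12 of 19 (63.2%), led by Sema4b (9.73 ± 0.22), Sema3a (9.13 ± 0.25) and Sema3f (9.12 ± 0.15), with the receptors Nrp1 (11.41 ± 0.11), Nrp2 (9.17 ± 0.23), Plxna2 (8.22 ± 0.33) and Plxnd1 (7.41 ± 0.23). Slit2 gave 10.74, 10.66, 10.12 and 10.88, Slit3 was at 9.11 ± 0.31, and their receptor Robo1 gave 8.41, 8.36, 8.41 and 8.44. Netrin 1 (Ntn1) separated the arrays, with 6.03 and 6.05 on replicates 3 and 4 and 7.34 and 6.80 on replicates 1 and 2. Its receptors Unc5b (10.83 ± 0.33), Unc5c (9.27 ± 0.14) and Neo1 (9.45 ± 0.22) were on, and Dcc was above background on no array.

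VEGF ligands were on, Vegfa (9.63 ± 0.16), Vegfb (10.24 ± 0.15) and Vegfc (9.19 ± 0.28), and Angpt2 (8.28 ± 0.39) was on without its receptor Tek. In the EGF system Hbegf gave 10.17, 10.30, 10.31 and 10.35 and Egfr gave 9.58, 9.69, 9.36 and 9.59. Erbb2 was at 7.56 ± 0.17, and Erbb3 and Erbb4 were above background on no array. Hgf, Kitl, Kit, Flt3 and Mst1 were likewise above background on none, and Met was partial. Csf1, the macrophage growth factor, was at 9.98 ± 0.09, and its receptor gene Csf1r had no probe. Of the neurotrophic factors Gdnf (7.14 ± 0.27) was on with weak Gfra1 (5.61 ± 0.06) and Ret at 6.62 ± 0.24, and Bdnf (6.64 ± 0.34) was on without Ntrk2.

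Chemokine ligands were on for 10 of 23 (43.5%), near the 48.2% of all genes, and receptors for 1 of 20 (5%). The difference between the 2 shares was not tested. Cxcl12, a stromal chemoattractant, gave 11.68, 12.04, 11.88 and 12.36, and its receptor Cxcr4 gave 7.03, 6.68, 6.48 and 6.16. Cx3cl1 (9.78 ± 0.25), Ccl7 (9.57 ± 0.13), Ccl2 (9.19 ± 0.27), Cxcl1 (7.37 ± 0.28) and Ccl5 (7.19 ± 0.33) were on. Their receptors Cx3cr1, Ccr2, Cxcr2 and Ccr1 were above background on no array. Cxcl14 gave 10.21, 10.59, 9.05 and 10.72, lowest on replicate 3.

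Other inflammatory ligands were mostly at background. Tnf, Il1a, Il1b, Ifnb1 and Ifng were above it on no array. Receptors for such signals were on in part. Tnfrsf1a was on at 10.73 ± 0.25, and Tnfrsf1b was above background on no array. Of 4 interferon receptors 3 were on, Ifngr2 (11.29 ± 0.07), Ifngr1 (8.11 ± 0.11) and Ifnar2 (7.0), and Ifnar1 was above background on no array. Of 3 interleukin-1 family receptors 0 were on and all 3 were partial. Osmr was on at 9.01 ± 0.17. Tnfrsf12a, the receptor of the cytokine TWEAK, gave 13.53, 13.71, 13.73 and 13.70, with its ligand gene Tnfsf12 above background on no array. Tnfrsf11b, the decoy receptor osteoprotegerin, was at 10.52 ± 0.23 beside Tnfsf11, the ligand it binds, at 8.20 ± 0.24. Il11 (8.65 ± 0.46) and Lif (7.61 ± 0.06) were on, and Lifr was above background on no array. Interferon response genes were on for 6 of 18 (33.3%), 4 of them weak, and Ifit1, Ifit3, Mx1, Mx2 and Rsad2 were above background on none. Bst2, an interferon-induced membrane protein, was the exception in level and spread, with 9.56, 11.74, 10.49 and 11.09.

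Receptors for serum-borne lipids and proteases were bright on few genes. F2r, the thrombin receptor, gave 14.22, 14.17, 14.62 and 14.42. S1pr2 (11.69 ± 0.11), Lpar4 (10.13 ± 0.12) and Lpar1 (9.39 ± 0.16) were on, with the sphingosine kinases Sphk1 (9.90 ± 0.25) and Sphk2 (9.11 ± 0.08). The other 9 of 13 receptors in the list were partial or at background, S1pr1 and S1pr3 among the 7 above it on no array. Prostaglandin enzymes were on, Ptgs2 at 8.30 ± 0.19 and Ptgis at 8.67 ± 0.41, whereas 1 of 8 prostaglandin receptors was, the weak Tbxa2r (5.43 ± 0.22). Adm, the peptide adrenomedullin, gave 9.36, 10.20, 10.00 and 10.31 with its accessory protein Ramp2 on and its receptor Calcrl above background on no array. Edn1 was at 8.46 ± 0.20.

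Matrix receptors and the retinoid and hyaluronan pathways were detected as well. Integrin and collagen receptors were on for 13 of 19 (68.4%), with Itgb1 (13.42 ± 0.08), Itgb5 (10.81 ± 0.40), Itga11 (9.85 ± 0.42) and Ddr1 (10.18 ± 0.23). Has2, the main hyaluronan synthase of embryonic mesenchyme, gave 10.07, 10.11, 10.24 and 10.20, and Cd44, a hyaluronan receptor, was at 12.37 ± 0.12 through 2 of its 10 probes. Ptn (11.61 ± 0.03) and Mdk (11.12 ± 0.47), heparin-binding growth factors, were on. The retinoic acid enzymes Aldh1a3 (10.01 ± 0.41) and Rdh10 (8.26 ± 0.24), the degrading enzyme Cyp26b1 (9.44 ± 0.30) and the binding proteins Crabp1 (11.63 ± 0.23) and Crabp2 (9.36 ± 0.70) were on, with Rxrb (9.98 ± 0.18) and weak Rarg (6.12 ± 0.27) among receptors. Of 2 GABA synthesis genes and 8 GABA receptor genes 0 were on.

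Among the list members on, 177 had several probes, and in 125 of these at least 1 probe was above background on no array. The members named here with such a probe include Fgfr2 (1 of 4 probes on all arrays), Tgfbr2 (1 of 4), Tgfbr1 (1 of 3), Nrp2 (1 of 5), Slit2 (2 of 8), Sox6 (1 of 5), Flt1 (1 of 2) and Vim (1 of 2).

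Levels were close between the 4 arrays. The median SD over genes on was 0.17, the 95th percentile was 0.40, and 159 genes (1.86%) had an SD above 0.5. Fbxw5, a ubiquitin ligase subunit, had the largest SD (1.86) through a single array, with 9.34 on replicate 3 and 5.48, 5.96 and 5.52 on replicates 1, 2 and 4. Ppbp, a platelet chemokine, gave 6.81, 9.39, 7.28 and 9.76, high on replicates 2 and 4. The protease inhibitors Slpi (10.08, 10.95, 8.82 and 10.47) and Serpinb2 (7.93, 9.72, 10.00 and 9.83) varied too, with Slpi lowest on replicate 3 and Serpinb2 lowest on replicate 1.

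**Figure D5:**
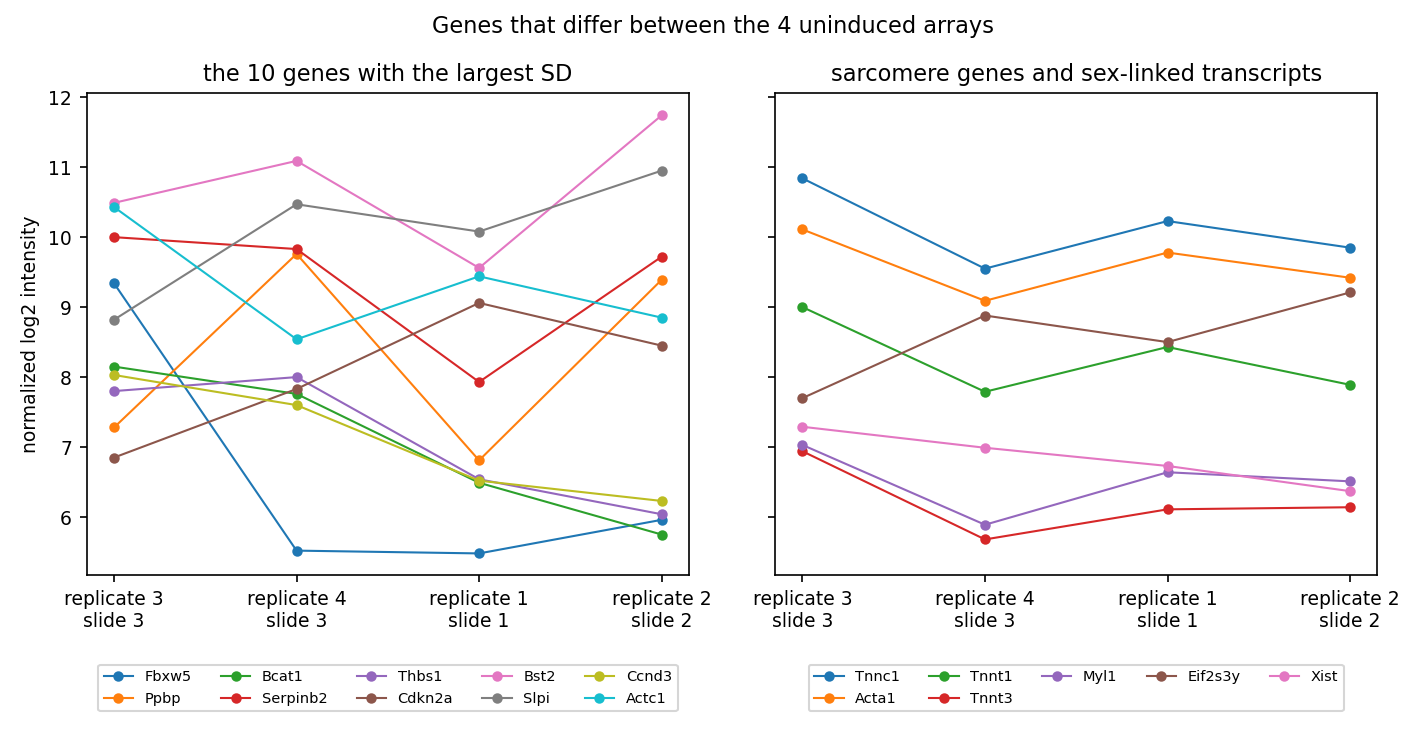
Normalized log2 intensity (vertical axis) on each uninduced array (horizontal axis, the 2 arrays of slide 3 first, then slides 1 and 2), joined by lines for each gene. Fbxw5 stands out on replicate 3, and the sarcomere genes on the right share their highest array, replicate 3, and their lowest, replicate 4.

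The 2 arrays of slide 3 were compared with the arrays of slides 1 and 2. The slide was read from the array identifiers in the labels, where arrays with the same leading number were taken as 1 slide. Slide 3 alone makes up its side, so the SE and adjusted p rest on spread between arrays and do not measure variation between slides. Thbs1, the matrix protein thrombospondin 1, gave 7.80 and 8.0 on slide 3, against 6.54 and 6.04 on slides 1 and 2, a difference of 1.61 (SE 0.20, limma adjusted p = 0.0232). The groups do not overlap, as is likely for a gene picked by the smallest p of this same comparison. Bcat1, which starts the breakdown of branched-chain amino acids, gave 8.15 and 7.76 on slide 3, against 6.49 and 5.75 on slides 1 and 2, a difference of 1.84 (SE 0.24). Ccnd3, cyclin D3, gave 8.03 and 7.60, against 6.52 and 6.23 on slides 1 and 2, and differed by 1.44 (SE 0.20). Gdi2, Gnas, Umps, Hmgn5 and Tcp1 were also higher on slide 3, by 1.18, 1.02, 0.99, 0.91 and 0.66. Selenom was at 8.77 on slide 3, against 9.80 on slides 1 and 2, a difference of -1.03 (SE 0.13). Olfr94 was at 5.17, against 6.46 on slides 1 and 2, a difference of -1.30 (SE 0.17). All 10 genes had the same limma adjusted p of 0.0232.

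In all, 163 of the 8543 genes on differed between slide 3 and slides 1 and 2 at an adjusted p under 0.05 (1.91%), 85 higher on slide 3 (0.995%) and 78 lower (0.913%). Where arrays were scaled to a common median instead, the split was 634 higher and 9 lower, over a median difference of all genes of 0.275, so directions are relative to the quantile scale. The count was 0 without replicate 1, 1 without replicate 2, 76 without replicate 3 and 330 without replicate 4, where the lone array left on a side is assumed to vary like the rest, and it was also 0 without a variance trend. The slide and any difference between the cultures placed on it cannot be told apart.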

How the data were processed

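Total RNA was labelled as biotinylated cRNA and hybridised to single-channel Illumina bead arrays, per the labels' protocols. The deposited table, exported from GenomeStudio 1.6.0 per the submitters' processing notes, gives an average bead intensity on a linear scale, without normalization, and a detection p-value for each probe and array. A matrix of background-subtracted intensity by the authors (median 4.4 on each array) was an alternative. Of 46632 probes, 29976 carry 1 gene name, 10 several and 16646 none, and 99.8% of Entrez identifiers matched the reference table of names. No genome build is given in the sources used here for the probes, and promoter positions are those of RefSeq.

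Only the 4 uninduced arrays entered. Probe lines repeated in the table (11) were averaged. The neqc function of limma 3.58.1 (R 4.3.3) subtracted background, with its negative controls estimated from the detection p-values, and normalized by quantiles (offset 16). A gene was on, partial or at background as the report defines, and the brightest probe on all 4 arrays gave its level; where no probe was on all 4, the brightest probe was used. The number of arrays limits the precision. Slide 3 and slides 1 and 2 were compared by a two-sided limma test whose prior variance followed the mean level. Benjamini-Hochberg adjustment covered 8543 genes. On simulated data the fit recovered 10% of shifts of 0.5 log2, 46% of shifts of 1 and 90% of shifts of 2. It also called 4 unchanged genes. The members and gene lists were chosen with earlier results of these data known. The genes named are the 25 brightest, the 10 with the largest SD, the 10 with the smallest p between slides, up to 6 brightest and up to 6 undetected members of each lineage list, and the members of each ligand-receptor list. Genes named with partial detection, and members beyond these numbers, were chosen after their values were seen. Alternatives changed the detection threshold, the number of arrays, the probe rule, the background correction, the normalization, the variance trend, the filter and the arrays.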

Additional observations from a re-analysis of the deposited data

Results flagged for a closer look

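In 12 of 350 named genes (3.43%) 1 of the 4 arrays stood apart from the other 3 by more than Dixon's 95% limit, which chance exceeds in about 1 in 20 groups, and each array stood apart in 3 genes. Replicate 1 was low for Serpinb2 (7.93, others 9.72 to 10.00) and Tnfrsf12a (13.53, others 13.70 to 13.73) and high for S1pr2 (11.85, others 11.62 to 11.64). Replicate 2 was high for Boc (5.82, others 5.31 to 5.37) and Il33 (6.05, others 5.47 to 5.51) and low for Efnb2 (8.82, others 8.98 to 9.01). Replicate 3 was high for Fbxw5 (9.34, others 5.48 to 5.96) and Pparg (7.29, others 6.68 to 6.76) and low for Igf1 (10.21, others 10.46 to 10.49). Replicate 4 was high for Sema3e (7.21, others 6.73 to 6.75) and low for Tpm1 (14.13, others 14.24 to 14.26) and Lpar4 (9.94, others 10.19 on each).

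Signal was also present in probes outside the gene counts: 2898 probes without a gene name were above background on all 4 arrays.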

How the results depend on the processing

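The count of genes on, 8543, was 7241 at a detection p under 0.01, 9013 with at least 3 arrays, 10150 with at least 1, 8539 with the brightest probe alone, and 8590 to 8757 when 1 array was left out. The 331 lineage and ligand-receptor members on were 277 at a detection p under 0.01, 358 with at least 3 arrays, 331 with the brightest probe alone and 333 to 346 without 1 array. Of 101 lists, 19 changed their count by more than 1.5 times at a detection p under 0.01 and 8 with at least 3 arrays. Of the 25 brightest genes, 16 stayed among the 25 brightest when the probes on were averaged, 24 or 25 under no background correction, median scaling and the authors' matrix, and 22 to 24 without 1 array. The 163 genes that differed between slide 3 and slides 1 and 2 were 151 without background correction (150 of them shared) and 643 with median scaling. They were 0 without a variance trend (1825 at an unadjusted p under 0.05 in limma), 0 without a detection filter (2618), and 0 to 330 without 1 array. None of the 10 genes named in that comparison changed direction under any of these settings. They were picked by the smallest p in the same arrays, so a kept direction is no support for them. All 10 had a limma adjusted p of 0.05 or more without a variance trend and without a detection filter. Selenom did so under median scaling too (limma adjusted p = 0.0524). No paired analysis was possible because only uninduced arrays were used, so replicate numbers link no samples across groups. Signals under 6.52 are within the range of weak calls, and probes at background give no upper limit for a transcript.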
